A study of Mus musculus with 12 samples.

Results

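The spliceosome genes described here are the 43 rows of the expression table, of 23230, whose symbols name Sm and snRNP proteins (Snrp), the LSm proteins 1 to 8, the SF3a and SF3b subunits, the U2AF proteins and the numbered PRPF proteins. They comprise 8 Sm ring genes, 4 further proteins of the U1 and U2 particles, 7 LSm genes, 3 SF3a, 5 SF3b and 3 U2AF genes, 5 PRPF genes of the U4/U6.U5 tri-snRNP and 8 other PRPF genes. No non-coding transcript of the Snrpn cluster was among the rows found. All 43 reached 1 FPKM in at least 1 of the 12 libraries, although Prpf40b did so only in the Zar1/2-null growing and Prpf19 only in the WT GV libraries.

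The spliceosome removes introns with small nuclear ribonucleoproteins, each built on a ring of Sm proteins around its RNA, or of LSm proteins in the case of U6. SF3a, SF3b and U2AF recognise the branch site and the 3′ splice site, and PRPF proteins hold or remodel the U4/U6.U5 particle. A ring with LSm1 in place of LSm8 acts in the cytoplasm, where it binds the 3′ ends of deadenylated mRNAs and promotes their decapping. Fully grown mouse oocytes are transcriptionally silent, and their stored maternal mRNAs are translated, deadenylated or degraded as meiosis resumes.

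ZAR1 and ZAR2 are oocyte RNA-binding proteins, and the study compared WT oocytes with oocytes lacking both (Zar1/2-null), all of a C57BL6/ICR hybrid strain. In the Zar1/2-null mice a CRISPR/Cas9 frameshift deletion lay in exon 1 of Zar2 and a small deletion followed by a stop codon in Zar1, so transcripts of both genes could still be made. Growing oocytes came from females labelled 13.5 days old (the study's methods give a younger age), germinal vesicle (GV) oocytes from females of 21 days at 44 h after PMSG, and ovulated oocytes, labelled MII, 16 h after hCG. Each of the 6 groups had 2 Smart-seq2 libraries of 10 oocytes. MII names the time of collection, and Zar1/2-null oocytes taken then need not have reached metaphase II, so genotype and meiotic stage cannot be told apart in that group.

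The table holds FPKM, fragments per kilobase of transcript relative to all mapped fragments, multiplied by a factor from the ERCC spike-in, a set of synthetic RNAs added to each lysate. The factors were 0.225 and 0.228 for the WT MII libraries and 0.283 and 0.252 for the Zar1/2-null MII libraries, relative to WT growing libraries. A value was called higher or lower at an adjusted p under 0.05, from limma on log2(FPKM + 1) over all 12 libraries with Benjamini-Hochberg adjustment over 11502 genes. The table holds no counts and no counting error was computed, and nothing states that the 2 libraries of a group came from separate females, so p-values measure the spread between these libraries, which may be technical. The cDNA was primed with oligo(dT), so the amount of a transcript and the share of it with a tail that can be primed cannot be told apart, nor can an unequal recovery of the spike-in and a change in total RNA.

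Zar1l, under which Zar2 is listed, held 533 and 504 FPKM in the WT GV libraries and 20.9 and 19.6 in the Zar1/2-null GV libraries, and Zar1 439 and 423 against 136 and 203. At MII Zar1l held 3.13 and 4.72 in WT and 1.36 and 1.01 in Zar1/2-null libraries, while Zar1 was lower in WT, at 83.6 and 72.4, than in Zar1/2-null libraries, at 189.6 and 194. In growing libraries Zar1l held 639 and 644 in WT and 17.5 and 13.2 in Zar1/2-null, and Zar1 603 and 725 in WT and 407 and 459.9 in Zar1/2-null. All 10 oocyte markers examined reached 1 FPKM in 5 of the 6 groups, and in WT MII oocytes Figla did not. The 13 granulosa and cumulus markers summed to 23.4 and 26.6 FPKM in WT growing libraries, 6.05 and 10.9 in Zar1/2-null growing libraries and 4.28 to 15.8 in the others, with Cyp19a1 the highest at 2.53 to 19.0 FPKM, Amh at no more than 0.0317 and Ptx3 at 0 throughout. The part of follicle cells in the results was not tested. The 5 immune markers summed to at most 0.383 FPKM, and of the 4 epithelial markers Cdh1, which oocytes express, held 13.7 to 29.4 FPKM and the other 3 stayed under 1.

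The 3′ ends of 8 members are shown as examples of transcripts that were higher (Snrpd2, Lsm4, Lsm2, Snrpb), not called (Snrpe, Snrpg) or lower (Sf3b1, Prpf38a) in Zar1/2-null MII oocytes. Each line gives 30 bases of the annotated transcript in mm9, 5′ to 3′, ending in the poly(A) signal in capitals (AATAAA or ATTAAA).
Snrpd2, chr7:19738028-19738057, plus strand: cagaaccctgcccagtgggcgagaAATAAA
Lsm4, chr8:73202603-73202632, plus strand: accctgtacatcttctgtttgaaaAATAAA
Lsm2, chr17:35122788-35122817, plus strand: tggaaagatctgtcccgcatcgggAATAAA
Snrpb, chr2:129997398-129997427, minus strand: ctgtggcctatgaagctggtttatAATAAA
Snrpe, chr1:135500477-135500506, minus strand: acttgcacattattattaggtgacAATAAA
Snrpg, chr6:86328853-86328882, plus strand: attttcatatggaactttttactaAATAAA
Sf3b1, chr1:55042029-55042058, minus strand: gtgagcatcaagtaccaccagataAATAAA
Prpf38a, chr4:108237494-108237523, minus strand: aaagatgtgatcctttcatttgtaATTAAA

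A poly(A) signal lay in the last 50 bases of 33 of the 43 annotated transcripts (76.7%, against 76.8% of all tested genes with a 3′ UTR). Of these 33, 6 (18.2%) had TTTTAT or TTTTAAT, forms of the cytoplasmic polyadenylation element that may overlap the signal, on the sense strand beginning within 100 bases upstream of it, against 20.2% of all tested genes with a signal. They included Lsm7, Prpf4, Sf3a3, Sf3b1 and Snrpa1. Snrpd2, Lsm4, Lsm2, Snrpb, Snrpe, Snrpg and Prpf38a had neither form in this window. Whether the element bears on the levels at MII was not tested.

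The authors kept uniquely mapped reads trimmed to 50 bases, so sequence shared with processed copies can lower a gene's value. For 12 of the 43 members, more than 20% of the 50-base windows of the transcript had an exact copy elsewhere in mm9. The share was 96.4% for Lsm7, 88.4% for Snrpg, 84.4% for Lsm5, 81.6% for U2af1, 57.5% for Sf3b4, 57.1% for Snrpc and 48.2% for Snrpd2, against 0% for Lsm2 and under 4% for 28 members. Levels of those genes relative to others are therefore uncertain, and across the 43 members the shared fraction and the MII genotype difference had a Spearman rho of 0.04, given as a description.

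**Figure D1:**
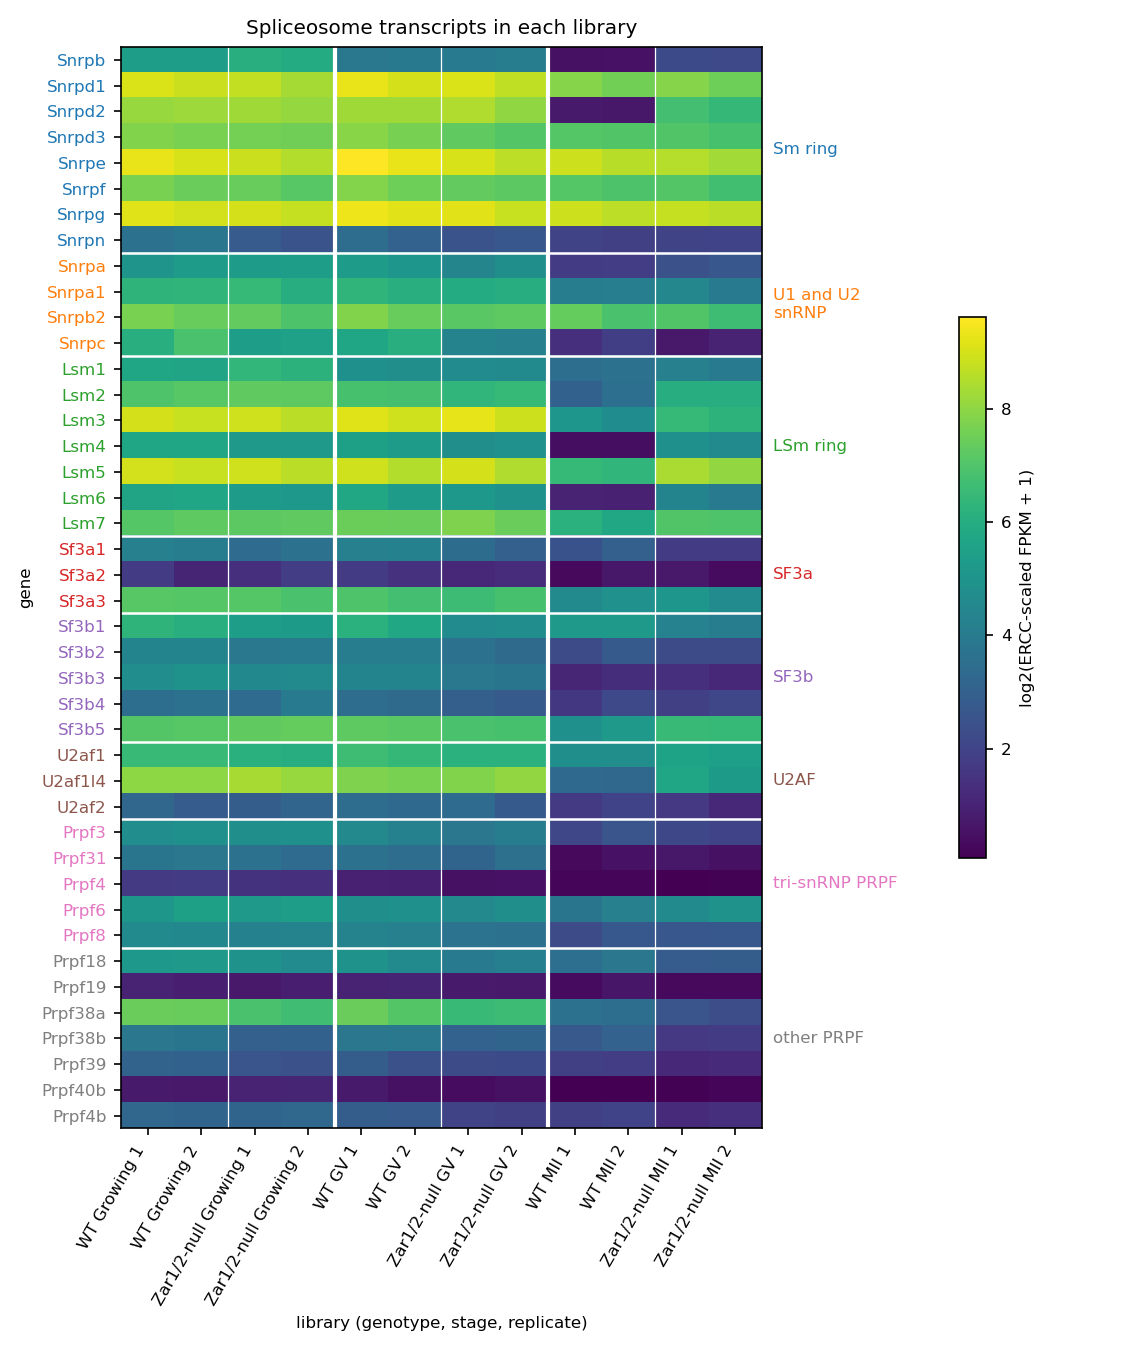
Level of 42 of the 43 transcripts (rows, coloured by role) in each of the 12 libraries (columns), as log2 of the ERCC-scaled FPKM + 1. Most rows darken at MII, and Snrpb, Snrpd2, Lsm2, Lsm4, Lsm6 and U2af1l4 are darker in both WT MII libraries than in both Zar1/2-null MII libraries.

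At MII the log2 differences between genotypes ran from -1.19 to 5.87 over the members, beside -1.09 to 0.63 in growing and -1.59 to 0.20 in GV oocytes. Of the 43 spliceosome transcripts, 14 exceeded their WT level in Zar1/2-null MII oocytes (32.6%, with 21.5% of all tested genes called higher) and 8 were lower (18.6%, with 10.3% of all tested genes called lower). All 7 LSm transcripts were higher, with a median log2 fold change of 1.84, beside 0.06 over the 43 members and 0.06 over all tested genes. Of the other PRPF genes 5 of 8 were lower and none was higher, also at an unadjusted p under 0.05. Without the ERCC factors 13 of the 14 were still called higher and all 8 still lower, and 14 members in all were called lower. Of the 12155 genes tested without the factors, 2908 were called higher and 2761 lower.

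With the ERCC factors, the Sm ring split into transcripts that fell below 1 FPKM in WT MII oocytes and transcripts that did not. Snrpd2 encodes SmD2, 1 of the 7 proteins of the ring. It held 303 and 308 FPKM in WT GV libraries and 353 and 262 in Zar1/2-null GV libraries, then 0.694 and 0.610 in WT MII libraries and 107 and 85.1 in Zar1/2-null MII libraries. Both Zar1/2-null MII libraries lay far above both WT MII libraries, while at GV the genotypes overlapped. The means at MII were 0.652 ± 0.0592 FPKM and 95.9 ± 15.3 FPKM (SD, n = 2), a 147-fold difference (log2 fold change 5.87 ± 0.17 (SE), adjusted p = 1.12e-09). On the log2(FPKM + 1) scale the change of so low a WT value is understated.

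Snrpb, which encodes SmB and its longer form SmB′, was the other Sm transcript called at MII. WT MII libraries held 0.406 and 0.435 FPKM and Zar1/2-null MII libraries 3.61 and 3.54, 8.50-fold apart by their means (log2 fold change 1.69 ± 0.12 (SE), adjusted p = 9.97e-07). The Zar1/2-null level was still low beside the 15.6 and 16.3 FPKM of Zar1/2-null GV libraries. Snrpn, which encodes the closely related SmN, held 3.04 and 2.66 FPKM in WT and 3.06 and 2.98 in Zar1/2-null MII libraries, and these overlapped.

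The other 5 Sm transcripts stayed abundant in both genotypes. Snrpg, the Sm transcript with the highest mean over the 12 libraries (502 FPKM), held 480.0 and 407 FPKM in WT and 442 and 396 in Zar1/2-null MII libraries (log2 fold change -0.08 ± 0.18 (SE), adjusted p = 0.823). Snrpe held 473 and 389.7 against 379.7 and 316 FPKM, without overlap but short of the threshold (log2 fold change -0.31 ± 0.21 (SE), adjusted p = 0.306). Snrpf, Snrpd1 and Snrpd3 differed by -0.12 ± 0.18, -0.05 ± 0.22 and -0.14 ± 0.16 on the log2 scale (SE), with none called. Snrpe and Snrpd3 were called lower in Zar1/2-null MII oocytes without the ERCC factors (log2 fold changes -0.55 and -0.38, adjusted p = 0.0229 and 0.0346), as with median scaling. At MII the WT oocytes therefore held less than 1 FPKM of Snrpd2 and Snrpb beside more than 100 FPKM each of Snrpd1, Snrpd3, Snrpe, Snrpf and Snrpg, per length of transcript. Snrpn lay between them. Without the ERCC factors the WT MII means of Snrpd2 and Snrpb were 2.88 and 1.86 FPKM, so the limit of 1 FPKM depends on the scaling.

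With the ERCC factors, the LSm transcripts taken by the symbol rule were the only one of the 8 role groups in which every member was called in the same direction at MII. Lsm8 lay outside the rule and was not called, and Lsm1 was not called without the factors, as given below. Lsm4, shared by the nuclear and the cytoplasmic ring, held 0.326 and 0.352 FPKM in WT MII libraries and 28.2 and 24.2 in Zar1/2-null MII libraries, a 77.2-fold difference of the means (log2 fold change 4.34 ± 0.14 (SE), adjusted p = 1.62e-09). At GV it had been lower in Zar1/2-null oocytes, with 26.3 and 28.9 FPKM beside 44.4 and 39.6 in WT. The order of the genotypes thus turned between GV and MII with the ERCC factors, but without them the GV difference was not called (log2 fold change -0.15, adjusted p = 0.438).

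Lsm6 took a like course with the ERCC factors. WT libraries held 52.9 and 39.8 FPKM at GV and 1.03 and 0.930 at MII, and Zar1/2-null libraries 34.7 and 29.9 at GV and 19.9 and 15.3 at MII (18.01-fold at MII, log2 fold change 3.22 ± 0.18 (SE), adjusted p = 9.92e-08). Its GV difference was not called without the factors (log2 fold change -0.06, adjusted p = 0.835), and its sign turned with median scaling (log2 fold change 0.03). Lsm2 held 7.19 and 10.7 FPKM in WT and 64.4 and 64.1 in Zar1/2-null MII libraries (7.19-fold, log2 fold change 2.74 ± 0.17 (SE), adjusted p = 2.78e-07). Both Zar1/2-null MII values of these transcripts lay above both WT MII values.

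The abundant LSm transcripts differed less. Lsm5, with the highest mean of the group, held 86.5 and 80.5 FPKM in WT and 339 and 269 in Zar1/2-null MII libraries (3.64-fold, log2 fold change 1.84 ± 0.21 (SE), adjusted p = 4.64e-05). Lsm3 and Lsm7 were 2.78-fold and 2.02-fold higher by their means, with adjusted p = 1.62e-04 and 7.42e-04. Most of the Lsm7 and Lsm5 sequence has exact copies elsewhere, as given above, and the 71.1 and 55.2 FPKM against 129.8 and 125 of Lsm7 rest on the reads that remained.

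Lsm1 is specific to the cytoplasmic decay ring. Its MII libraries held 10.3 and 11.6 FPKM in WT and 17.5 and 14.8 in Zar1/2-null oocytes (1.47-fold, log2 fold change 0.52 ± 0.14 (SE), adjusted p = 0.0170). It was the LSm transcript with the smallest difference, and the 1 not called without the ERCC factors (log2 fold change 0.31, adjusted p = 0.0751). Lsm8, its counterpart in the nuclear U6 ring, is listed under the older symbol Naa38, which the symbol rule did not take. It held 5.93 and 4.85 FPKM in WT and 4.33 and 4.86 in Zar1/2-null MII libraries, which overlapped (log2 fold change -0.19 ± 0.16 (SE), adjusted p = 0.446). It was called lower without the ERCC factors (log2 fold change -0.44, adjusted p = 0.0434) and with median scaling (adjusted p = 0.0499).

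**Figure D2:**
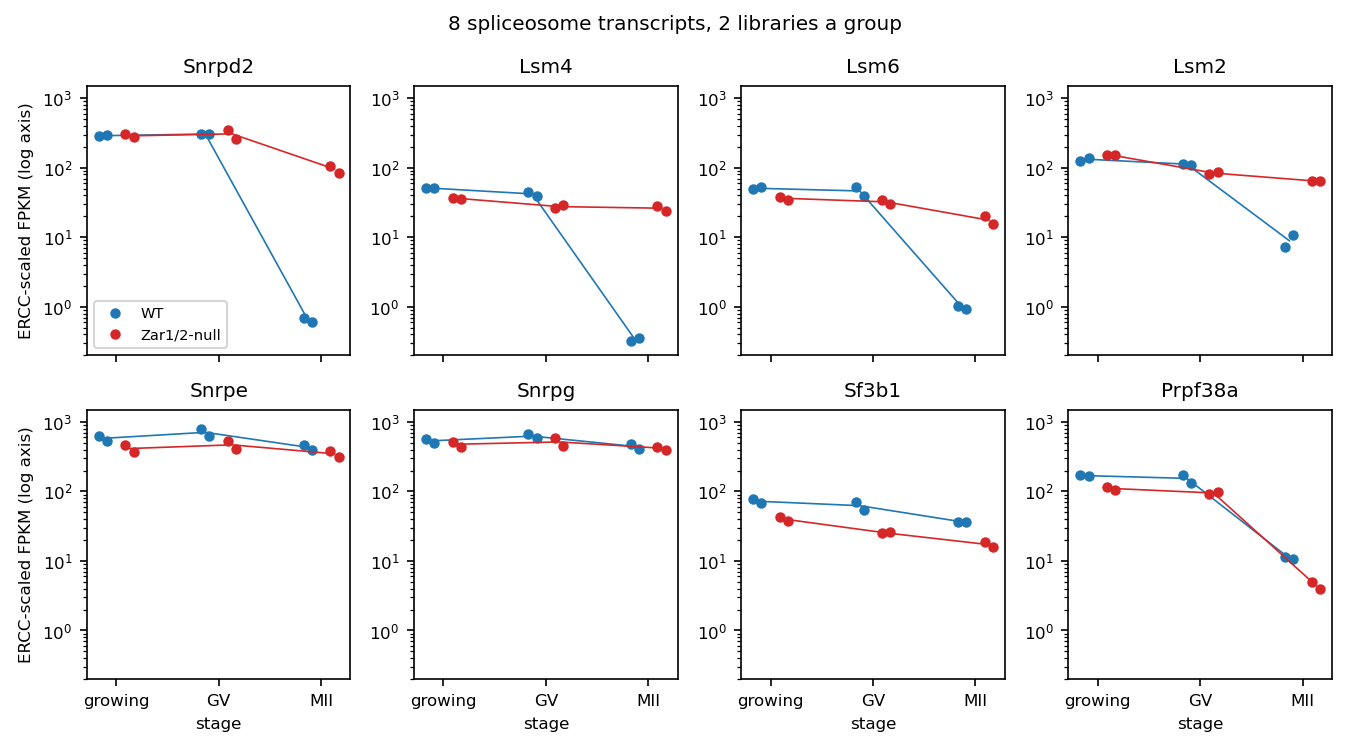
ERCC-scaled FPKM on a log axis for 8 transcripts at 3 stages, with each point 1 library, blue for WT and red for Zar1/2-null, and lines joining group means. WT values of Snrpd2, Lsm4 and Lsm6 end at about 1 FPKM or below at MII while Zar1/2-null values stay above 15, Snrpe and Snrpg stay above 300 in both, and Sf3b1 is lower in Zar1/2-null oocytes at each stage.

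Among the branch-site factors, Sf3b1 and Sf3a1 were lower in Zar1/2-null MII oocytes. Sf3b1, the scaffold of SF3b that contacts the branch site, held 36.6 and 36.4 FPKM in WT and 18.5 and 15.8 in Zar1/2-null MII libraries, 2.13-fold lower by the means (log2 fold change -1.05 ± 0.17 (SE), adjusted p = 5.44e-04). Sf3a1, a core subunit of SF3a, held 4.61 and 7.06 against 2.41 and 2.27 FPKM (log2 fold change -1.01 ± 0.20 (SE), adjusted p = 0.00242). In both cases each WT library lay above each Zar1/2-null library.

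Sf3b5, a small subunit of SF3b and the most abundant SF3b transcript, went the other way, with 28.2 and 35.3 FPKM in WT and 88.8 and 86.5 in Zar1/2-null MII libraries (2.76-fold, log2 fold change 1.45 ± 0.15 (SE), adjusted p = 1.50e-05). The other members of the SF3 groups were not called, and their log2 differences ran from -0.25 (Sf3b2) to 0.11 (Sf3a3). Sf3a3, the SF3a transcript with the highest mean, held 23.9 and 29.2 FPKM in WT and 32.8 and 24.9 in Zar1/2-null MII libraries. Sf3a2, the lowest, held 0.238 and 0.601 in WT and 0.658 and 0.263 in Zar1/2-null MII libraries, and in both genes the genotypes overlapped. Sf3b4, the lowest of SF3b, held 2.08 and 3.46 in WT and 2.71 and 3.28 in Zar1/2-null MII libraries. Sf3b6, which contacts the branch point, is listed as 0610009D07Rik and lay outside the symbol rule, with 8.04 and 6.52 FPKM in WT and 7.92 and 5.09 in Zar1/2-null MII libraries.

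Of the U2AF genes, which read the 3′ splice site, U2af1l4, a relative of the small subunit, held 8.99 and 8.64 FPKM in WT and 51.7 and 37.5 in Zar1/2-null MII libraries (5.06-fold, log2 fold change 2.198 ± 0.18 (SE), adjusted p = 2.49e-06). U2af1, the small subunit itself, was 1.68-fold higher (log2 fold change 0.73 ± 0.14 (SE), adjusted p = 0.00194). U2af2, the large subunit that binds the polypyrimidine tract, held 2.26 and 2.92 FPKM in WT and 2.18 and 1.21 in Zar1/2-null MII libraries and was not called (log2 fold change -0.43 ± 0.24 (SE), adjusted p = 0.212).

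Of the U1 and U2 proteins, Snrpa, the A protein of U1, held 2.35 and 2.51 FPKM in WT and 4.41 and 5.26 in Zar1/2-null MII libraries (log2 fold change 0.76 ± 0.18 (SE), adjusted p = 0.00714). Snrpc, the C protein of U1 that helps U1 bind the 5′ splice site, held 1.57 and 2.56 against 0.641 and 0.961 (log2 fold change -0.75 ± 0.26 (SE), adjusted p = 0.0442). The U2 proteins Snrpa1 and Snrpb2 were not called. Snrpb2 was the most abundant of these transcripts, at 164 and 117 FPKM in WT and 129 and 99.9 in Zar1/2-null MII libraries.

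Among the tri-snRNP genes Prpf6, whose protein bridges the U5 and U4/U6 particles, was the 1 of 5 called at MII, with 12.9 and 17.9 FPKM in WT and 24.2 and 29.3 in Zar1/2-null libraries (log2 fold change 0.77 ± 0.19 (SE), adjusted p = 0.00956). Prpf8, the U5 protein at the catalytic centre, held 3.75 and 5.51 FPKM in WT and 5.39 and 5.51 in Zar1/2-null libraries, which overlapped. Prpf31, which binds U4, was under 1 FPKM in all 4, with 0.225 and 0.448 in WT and 0.589 and 0.404 in Zar1/2-null libraries. Prpf4, the lowest tri-snRNP transcript, held 0.144 and 0.138 in WT and 0.0505 and 0.0878 in Zar1/2-null libraries.

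The 5 other PRPF transcripts lower in Zar1/2-null MII oocytes were Prpf38b, Prpf38a, Prpf18, Prpf39 and Prpf4b. Prpf38b held 5.64 and 7.29 FPKM in WT and 2.13 and 2.36 in Zar1/2-null MII libraries (log2 fold change -1.19 ± 0.14 (SE), adjusted p = 4.75e-05). Prpf38a, whose protein takes part in activation of the spliceosome and which was the most abundant of this group before maturation, held 11.4 and 10.5 against 4.95 and 3.95 (log2 fold change -1.14 ± 0.17 (SE), adjusted p = 2.81e-04). Prpf4b, a kinase of the spliceosome, held 2.66 and 2.96 against 1.38 and 1.60 (log2 fold change -0.61 ± 0.13 (SE), adjusted p = 0.00372). Prpf18, a second-step factor, and Prpf39, a U1-associated protein, had log2 fold changes of -0.86 and -0.65. Prpf40b, the lowest of all members, stayed at or under 0.181 FPKM in the 4 MII libraries.

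**Figure D3:**
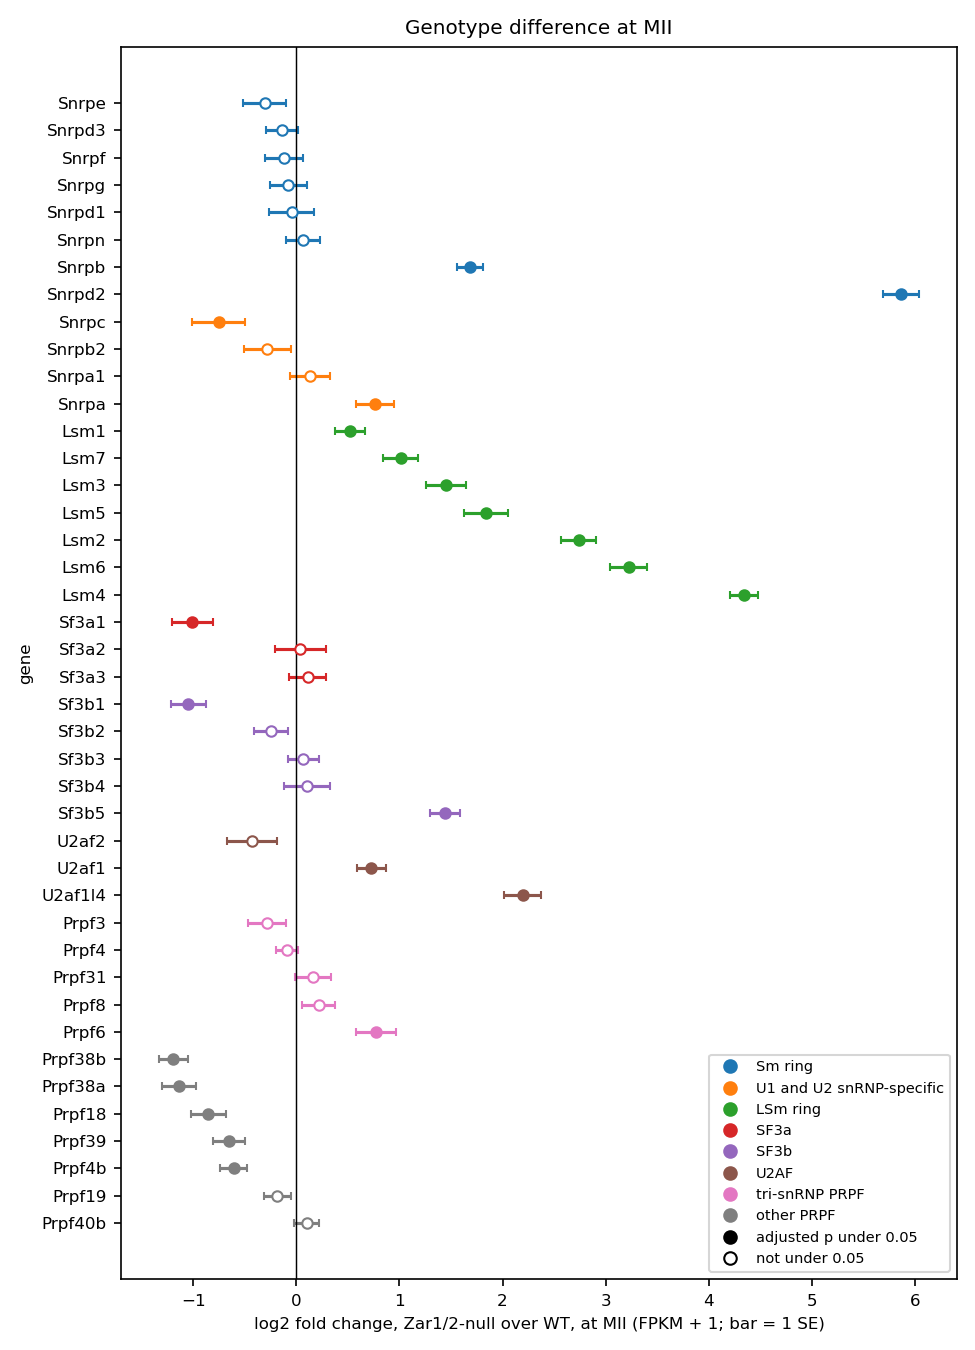
Log2 fold change of Zar1/2-null over WT at MII for 42 of the 43 transcripts on FPKM + 1, by role, with bars of 1 SE and filled points where the adjusted p is under 0.05. All 7 LSm points are filled and lie right of 0, from 0.52 to 4.34, and 5 of the other PRPF points are filled and lie left of it.

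From GV to MII almost every spliceosome transcript fell in WT oocytes. Of the 43, 42 were lower at MII (97.7%, with 93.4% of all tested genes called lower) and none was higher (0.104% of all tested genes were). The members' median log2 fold change was -1.54 and that of all tested genes -1.28. In Zar1/2-null oocytes 32 were lower (74.4%, with 68.7% of all tested genes called lower) and none was higher (0.209% of all tested genes), with medians of -0.84 and -0.72. In limma no member was higher in either genotype at an unadjusted p under 0.05 (0 of 43). These shares are near those of all genes and depend on the ERCC factors. Without the factors the median of all tested genes moved from -1.28 to -0.39 in WT and from -0.72 to -0.25 in Zar1/2-null oocytes. The members then split into 13 higher and 19 lower in WT and 14 higher and 17 lower in Zar1/2-null oocytes. All 12155 genes then tested gave 2332 higher and 5603 lower in WT and 2289 and 4779 in Zar1/2-null oocytes. The sign of 18 of the 42 WT member changes turned.

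Against that common fall the members differed widely. The share of the mean GV level found at MII in WT oocytes ran from 0.213% (Snrpd2) to 71.7% (Snrpb2), with a median of 26.9%, and in Zar1/2-null oocytes from 4.32% (Snrpc) to 108% (Prpf6), with a median of 38.2%. Over 8951 genes of at least 1 FPKM at GV in both genotypes, the medians were 19.1% and 36.6%. In WT oocytes 13 members (30.2%) kept under 10% of their GV level, beside 34.6% of those genes, and 8 (18.6%) kept over 50%, beside 14.8%.

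The steepest falls in WT oocytes were those of Snrpd2, Lsm4 and Lsm6. Snrpd2 fell from 306 ± 3.43 FPKM to 0.652 ± 0.0592 FPKM (SD, n = 2; log2 fold change -7.54 ± 0.17 (SE), adjusted p = 7.99e-11). Lsm4 kept 0.807% of its GV level (log2 fold change -5.00 ± 0.14 (SE), adjusted p = 1.15e-10) and Lsm6 2.11% (log2 fold change -4.57 ± 0.18 (SE), adjusted p = 9.23e-10). In Zar1/2-null oocytes these transcripts kept 31.2%, 94.8% and 54.6%. The Snrpd2 and Lsm6 falls in Zar1/2-null oocytes were called and that of Lsm4 was not.

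The 8 transcripts that kept over 50% in WT oocytes included Prpf6, Sf3b1, Snrpd3, Snrpe, Snrpf, Snrpg and Snrpb2. Snrpb2, a U2 protein that binds the U2 snRNA, was the 1 member not called between GV and MII in WT oocytes, with 224 and 168 FPKM at GV and 164 and 117 at MII (log2 fold change -0.48 ± 0.22 (SE), adjusted p = 0.0581). Without the ERCC factors Snrpe, Snrpf, Snrpg and Snrpd3 were higher at MII than at GV in WT oocytes, by 1.04, 1.08, 1.26 and 1.02 on the log2 scale, beside a median of -0.39 over all tested genes, so the direction of their change depends on the spike-in.

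Prpf38a, Snrpc and Prpf31 fell to under 10% of their GV level in both genotypes with the ERCC factors. Without them the shares in WT and Zar1/2-null oocytes were 24.2% and 9.73% for Prpf38a, 11.8% and 9.11% for Snrpc, and 10.4% and 10.8% for Prpf31. Prpf38a fell from 174 and 134 FPKM to 11.4 and 10.5 in WT libraries and from 92.5 and 97.6 to 4.95 and 3.95 in Zar1/2-null libraries (log2 fold change -4.14 ± 0.17 (SE), adjusted p = 4.97e-09 in Zar1/2-null oocytes). It was the steepest fall of any member in Zar1/2-null oocytes on the log2(FPKM + 1) scale. Snrpc kept 3.56% of its GV level in WT and 4.32% in Zar1/2-null oocytes (log2 fold change -3.44 ± 0.26 (SE), adjusted p = 3.55e-07 in Zar1/2-null oocytes), and Prpf31 3.07% and 5.21% (log2 fold change -2.80 ± 0.18 (SE), adjusted p = 8.66e-08).

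**Figure D4:**
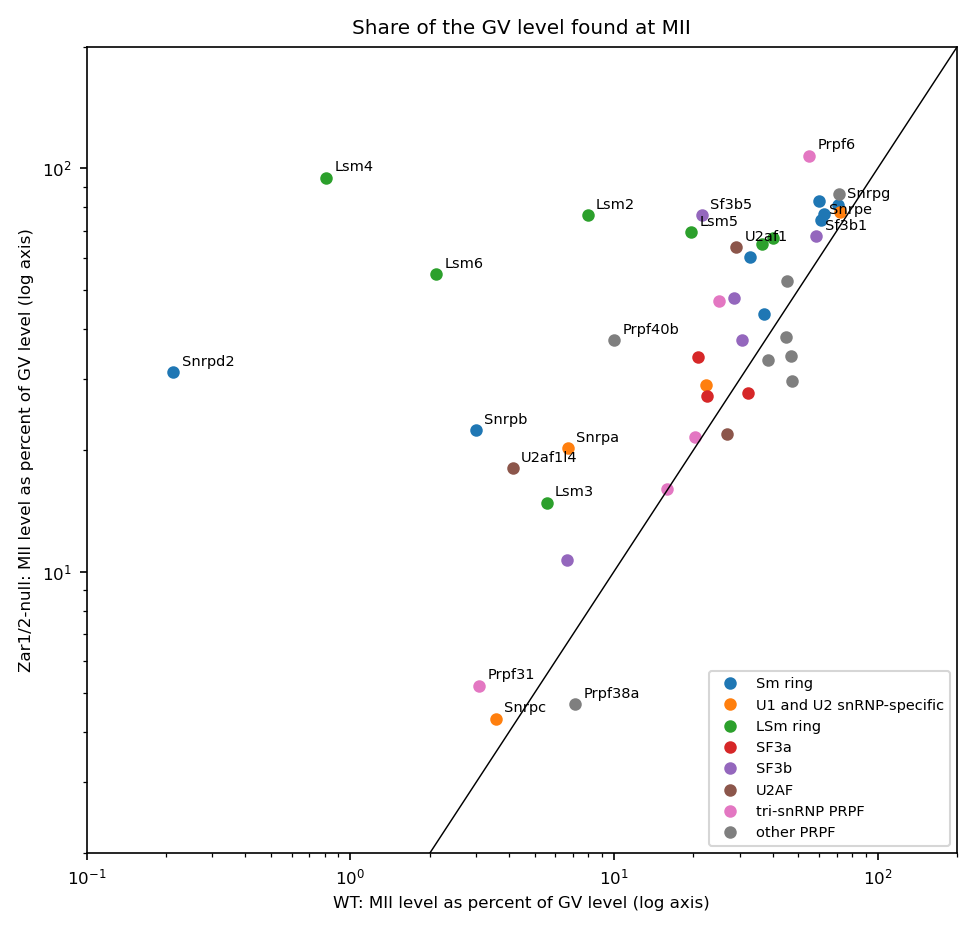
MII level as a percent of the GV level, from group means on log axes, in WT (horizontal) and Zar1/2-null (vertical) oocytes for the 43 transcripts, with the line of equal shares. Snrpd2, Lsm4, Lsm6 and Lsm2 lie far above the line, at 0.213%, 0.807%, 2.11% and 7.94% in WT, while Prpf38a, Snrpc and Prpf31 are under 10% in both.

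Whether the change from GV to MII differed between genotypes was tested as an interaction. It did for 17 members, toward a higher MII level relative to GV in Zar1/2-null oocytes (39.5%, with 33.9% of all tested genes called in that direction). Each fell less in Zar1/2-null oocytes, except Prpf6, whose mean did not fall (108% of its GV level). Not every Zar1/2-null fall was called, as in Lsm4, Lsm2 and Lsm5 (limma adjusted p = 0.635, 0.0684 and 0.0524). No member differed in the other direction (0.643% of all tested genes), with 0 in limma at an unadjusted p under 0.05 as well. Leaving out replicate 1 of the WT GV libraries lowered the count of 17. The median over all tested genes then went from 0.48 to 0.42. The 17 held all 7 LSm transcripts, 3 of the Sm ring, 2 each of SF3b, U2AF and tri-snRNP genes and Snrpa, with no SF3a and no other PRPF gene. Snrpd2 differed by 5.87 ± 0.25 (SE, adjusted p = 3.81e-08), Lsm4 by 4.93 ± 0.19 (adjusted p = 3.06e-08) and Lsm6 by 3.72 ± 0.25 (adjusted p = 1.02e-06) on the log2 scale. The median was 0.36 over the members and 0.48 over all tested genes.

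The interaction rests in part on the spike-in. Without the ERCC factors the median of all tested genes moved from 0.48 to 0.03. Then 9 of the 17 members were still called, with 4 others called in the opposite direction, beside 1739 and 750 of 12155 genes. The 9 were Snrpd2, Lsm4, Lsm6, Lsm2, U2af1l4, Lsm5, Sf3b5, Snrpb and Snrpa. Lsm1, Lsm7, Lsm3, Snrpn, Sf3b3, Prpf6, Prpf8 and U2af1 were no longer called, and median scaling turned the sign of 2 of the 17.

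In growing oocytes 2 members were higher in Zar1/2-null (4.65%, with 10.6% of all tested genes called higher) and 9 lower (20.9%, with 24.4% of all tested genes called lower). The median was -0.18 over the members and -0.16 over all tested genes. The count of 9 fell when any 1 of the 4 growing libraries was left out. Without the ERCC factors 4 members were higher and 3 lower, beside 1756 and 1425 of 12155 genes.

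Snrpb and Snrpn moved apart in growing oocytes. Snrpb held 42.4 and 42.4 FPKM in WT and 65.9 and 60.1 in Zar1/2-null growing libraries (log2 fold change 0.56 ± 0.12 (SE), adjusted p = 0.00510). Snrpn held 11.6 and 13.2 against 5.99 and 4.63 (log2 fold change -1.09 ± 0.17 (SE), adjusted p = 6.42e-04). Neither pair of groups overlapped, and both calls held without the ERCC factors.

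Lsm1 was the other member higher in Zar1/2-null growing oocytes, with 50.4 and 48.9 FPKM in WT and 82.9 and 71.9 in Zar1/2-null libraries (log2 fold change 0.63 ± 0.14 (SE), adjusted p = 0.00652). Snrpc held 64.99 and 118 against 41.97 and 45.4 FPKM (log2 fold change -0.99 ± 0.26 (SE), adjusted p = 0.0124). Its WT libraries lay far apart, and without WT growing replicate 2 the log2 fold change was -0.56 and the adjusted p 0.115. Sf3b1 held 77.4 and 67.4 against 42.4 and 37.7 FPKM (log2 fold change -0.84 ± 0.17 (SE), adjusted p = 0.00304). Both WT libraries of Sf3b1 lay above both Zar1/2-null libraries. The other 6 called lower were Prpf38b, Prpf38a, Sf3a1, Prpf39, Lsm4 and U2af1, by -0.80 to -0.42 on the log2 scale.

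At GV 19 members were lower in Zar1/2-null oocytes (44.2%, with 40.6% of all tested genes called lower) and none was higher (2.83% of all tested genes were), with 0 in limma at an unadjusted p under 0.05. The median was -0.40 over the members and -0.38 over all tested genes, a share and a shift near the background. Without the ERCC factors the median of all tested genes was -0.03, and 3 members were lower and 3 higher, beside 1590 and 882 of 12155 genes. Leaving out replicate 1 of the WT GV libraries lowered the count of 19. The median over all tested genes then went from -0.38 to -0.30. With the spread of the 4 GV libraries alone the 19 became 6, and all genes called lower went from 4666 to 2949 of 11502.

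On the log2(FPKM + 1) scale the members lowest at GV relative to WT were Snrpc, Sf3b1 and Sf3a1. Snrpc held 51.04 and 64.97 FPKM in WT and 19.3 and 17.8 in Zar1/2-null GV libraries (log2 fold change -1.59 ± 0.26 (SE), adjusted p = 7.54e-04). Sf3b1 held 71.5 and 53.4 against 24.9 and 25.7 (log2 fold change -1.26 ± 0.17 (SE), adjusted p = 2.52e-04), and Sf3a1 17.8 and 18.3 against 9.88 and 7.004 (log2 fold change -1.03 ± 0.20 (SE), adjusted p = 0.00218). Snrpc and Sf3b1 were still called without the ERCC factors and Sf3a1 was not (log2 fold change -0.63). Sf3b1 and Prpf38a, Prpf38b, Prpf39, Sf3a1 and Snrpc were thus lower in Zar1/2-null oocytes at all 3 stages with the factors. Without the factors Sf3b1 alone of these was still called lower at all 3 stages. How many of all tested genes were lower at all 3 stages was not counted.

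During growth, from growing to GV oocytes, 6 members fell in WT (14.0%, with 28.7% of all tested genes called lower) and none rose (2.77% of all tested genes did). In Zar1/2-null oocytes 20 fell (46.5%, with 55.9% of all tested genes called lower) and none rose (4.76% of all tested genes did). No member rose in either genotype in limma at an unadjusted p under 0.05. The members' medians were -0.15 and -0.32, and those of all tested genes -0.29 and -0.50. Without the ERCC factors the latter were 0.03 and -0.06. Then 2 members were lower and 3 higher in WT, beside 365 and 426 of 12155 genes. In Zar1/2-null oocytes 5 members were lower and 12 higher, beside 2494 and 1725 of 12155 genes. The WT count was lower without WT growing replicate 2 or without WT GV replicate 2. With the spread of the 4 WT libraries alone it was 3, and all genes called lower went from 3306 to 1952 of 11502.

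Snrpb fell most in both genotypes on the log2(FPKM + 1) scale, from 42.4 and 42.4 to 13.8 and 14.2 FPKM in WT (log2 fold change -1.53 ± 0.12 (SE), adjusted p = 9.83e-05) and from 65.9 and 60.1 to 15.6 and 16.3 in Zar1/2-null libraries (log2 fold change -1.92 ± 0.12 (SE), adjusted p = 1.61e-06). Lsm1 fell from 50.4 and 48.9 to 28.03 and 26.7 in WT (log2 fold change -0.84 ± 0.14 (SE), adjusted p = 0.00295) and from 82.9 and 71.9 to 24.9 and 23.2 in Zar1/2-null libraries (log2 fold change -1.65 ± 0.14 (SE), adjusted p = 9.15e-06). Snrpb was called in both genotypes without the ERCC factors too, and Lsm1 in Zar1/2-null oocytes.

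Prpf4, a U4/U6 protein, held 2.25 and 2.38 FPKM in WT growing and 0.908 and 0.861 in WT GV libraries (log2 fold change -0.81 ± 0.11 (SE), adjusted p = 9.45e-04). Prpf4b held 7.84 and 8.55 in Zar1/2-null growing and 3.06 and 2.63 in Zar1/2-null GV libraries (log2 fold change -1.26 ± 0.13 (SE), adjusted p = 2.35e-05), beside 8.35 and 7.78 in WT growing and 6.45 and 5.93 in WT GV libraries. In neither case did the libraries of the stages compared overlap.

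Short transcripts were called higher in Zar1/2-null MII oocytes at a larger rate than long ones, among the members as among all genes. Of the 14 members with an annotated transcript of up to 1000 bases, 8 (57.1%) were higher at MII, beside 499 of 956 such genes (52.2%). Of the 29 longer members 6 (20.7%) were higher, beside 18.8% of longer genes, and 7 (24.1%) were lower, beside 11.5%. The length limit was chosen after the values were seen. The median annotated transcript of the members was 2076 bases, against 2703.5 for all tested genes, and the median 3′ UTR 397 against 826 bases. Spearman's rho between transcript length and the MII genotype difference was -0.36 over the 43 members and -0.36 over 10765 genes, a description across genes measured in the same libraries. Other features gave values of like size over the members. In the same order rho was -0.46 and -0.26 for coding length and -0.39 and -0.30 for 3′ UTR length. It was -0.38 and -0.14 for the number of exons and 0.43 and 0.38 for the percent of G and C. Snrpe, Snrpg, Snrpd3 and Snrpf are also short and were not called, and Lsm6 and U2af1l4 have long annotated transcripts. Whether oocytes hold those forms, and whether length bears on the MII difference, was not tested.

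**Figure D5:**
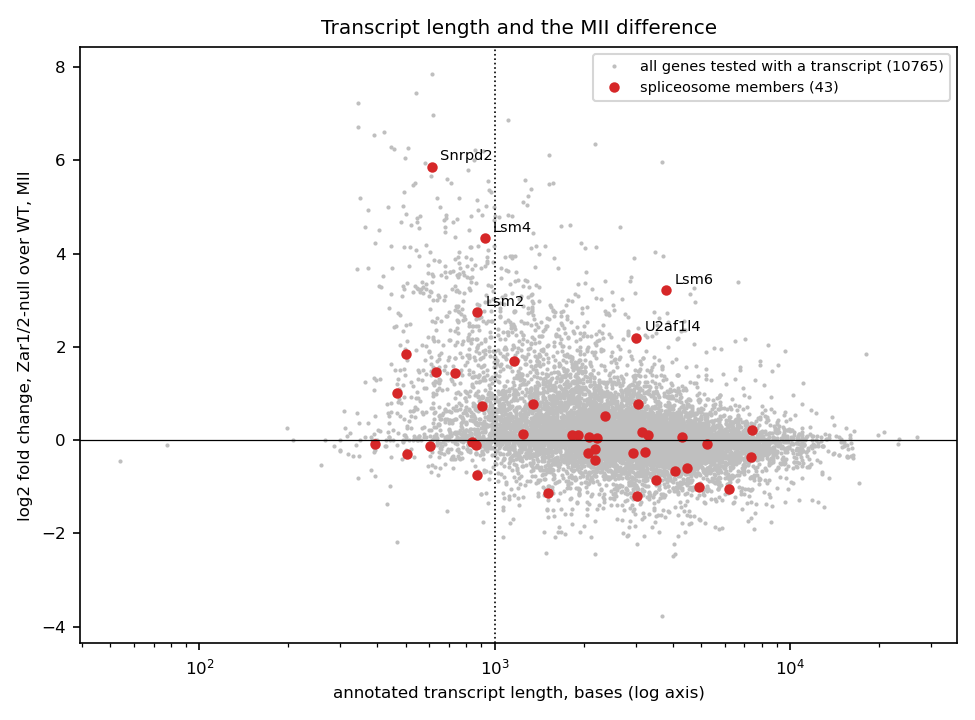
Annotated transcript length in bases (log axis) against the log2 fold change of Zar1/2-null over WT at MII, for the 43 members (red) over all 10765 tested genes with a transcript (grey), with a dotted line at 1000 bases. Snrpd2, Lsm4 and Lsm2 lie high at left of the line, and Lsm6 and U2af1l4 high at right of it.

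The other spliceosome genes, 94 genes in 9 lists of which 90 were tested, gave 16 higher and 17 lower at MII in Zar1/2-null oocytes, with a median of -0.04, beside 21.5% higher, 10.3% lower and a median of 0.06 over all tested genes. Gemin2 was read from its older symbol, Sip1. Of the 15 genes of the Prp19 complex and its partners 5 were higher and 1 lower, of 14 snRNP assembly genes (SMN complex and PRMT5 methylosome) 2 and 2, and of 13 U1, U2 and U5 proteins outside the symbol rule 2 and 2. Of 7 U4/U6 and tri-snRNP genes 1 was higher and 2 lower, of 8 minor spliceosome genes 2 and 1, of 7 later-step factors 0 and 1, of 7 exon junction genes 1 and 0, and of 5 further LSm proteins 2 and 1.

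The SR proteins, which bind exonic enhancers, had 1 higher and 7 lower of 14 at MII (21.5% and 10.3% of all tested genes) and 0 higher and 10 lower at GV (2.83% and 40.6% of all tested genes). The 10 became 3 without the ERCC factors and 3 with median scaling, and the count of 7 was the same under both. All genes called lower at MII rose from 1183 of 11502 to 2761 of 12155 and 2687 of 10752 under these 2 settings. Mean levels at MII were 19.8 FPKM in WT and 4.69 in Zar1/2-null oocytes for Tra2b, and 14.6 and 4.66 for Srsf5. In the opposite direction, Snrnp25, a protein of the minor spliceosome, held 0.260 and 27.8 FPKM (log2 fold change 4.50 ± 0.17, adjusted p = 5.21e-09), and Lsm10, an Sm-like protein of the U7 particle that processes histone mRNA, 1.46 and 33.6 (log2 fold change 3.81 ± 0.15, adjusted p = 5.90e-09).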

How the data were processed

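Polyadenylated RNA of mouse oocytes was sequenced by Smart-seq2 in 12 libraries, 2 for each of 3 stages and 2 genotypes. Per the submitters' processing notes and methods, reads cut to 50 bp were aligned to mm9 by TopHat2 2.1.1, only those with a unique position were used, and Cufflinks 2.2.1 computed expression over UCSC models. The FPKM values the authors deposited had been multiplied by an ERCC factor relative to the WT growing library of the same replicate number, and each factor was recovered from the digits of the values. Samples were grouped from the labels.

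Members were found by symbol among 23230 rows. The members, the lists and the tests were chosen with earlier results of these data known. Testing covered the 11502 genes that reached 1 FPKM in any library, with limma 3.58.1 in R 4.3.3 on log2(FPKM + 1), with 1 term for each of the 6 groups and eBayes with a trend, using Benjamini-Hochberg adjustment over all tested genes (threshold 0.05). A permutation of 2 against 2 libraries cannot give a small p, so the spread was shared over all groups. The change from GV to MII was compared between genotypes as an interaction. Per-library values are given for the 3 members of largest change in each direction of each comparison, the highest and lowest member of each role, Snrpb and Snrpn. Others named were chosen after their values were seen.

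Transcript features came from the longest coding transcript of each symbol in GENCODE vM1 on mm9 (10765 of 11502 tested genes matched), and copies from exact matches of 50-base windows to the genome. The alternatives removed the ERCC factors, averaged them within groups or replaced them by median scaling, used a pseudocount of 0.1 FPKM, no filter or a mean of at least 5 FPKM, added a replicate block, fitted only the groups compared, dropped the trend, and left out each library in turn. The study's other assays were not analysed here, and the values of 1 member and the 3′ end of 1 other are not reported here.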

Additional observations from a re-analysis of the deposited data

Results flagged for a closer look

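The change from GV to MII differed between the genotypes for 17 of the 43 members, by limma's test of the difference itself with Benjamini-Hochberg adjustment. The difference, Zar1/2-null change minus WT change on the log2(FPKM + 1) scale, was positive in each case. It was 5.87 for Snrpd2, 4.93 for Lsm4, 3.72 for Lsm6, 3.16 for Lsm2, 1.99 for U2af1l4, 1.82 for Lsm5, 1.81 for Sf3b5, 1.52 for Snrpb and 1.36 for Snrpa, and these 9 were also called without the ERCC factors. It was 1.40 for Lsm3, 1.10 for U2af1, 0.94 for Prpf6, 0.84 for Lsm7, 0.83 for Prpf8, 0.74 for Snrpn, 0.70 for Lsm1 and 0.60 for Sf3b3, and these 8 were not called without the ERCC factors. Over all tested genes the median difference was 0.48. Groups of 2 libraries were too small to look for single outlying libraries.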

How the results depend on the processing

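The direction and size of stage changes depend on the ERCC factors, and the number of calls on 2 libraries a group. Without the ERCC factors, members higher and lower were 4 and 3 in growing oocytes, 3 and 3 at GV, and 13 and 14 at MII. For MII against GV they were 13 and 19 in WT, 14 and 17 in Zar1/2-null, and 9 and 4 for the interaction. For GV against growing they were 3 and 2 in WT and 12 and 5 in Zar1/2-null. Of the 12155 genes tested, higher and lower were 1756 and 1425 in growing oocytes, 882 and 1590 at GV, and 2908 and 2761 at MII. For MII against GV all genes gave 2332 and 5603 in WT, 2289 and 4779 in Zar1/2-null, and 1739 and 750 for the interaction. For GV against growing all genes gave 426 and 365 in WT and 1725 and 2494 in Zar1/2-null. With median scaling, which kept 42 members, the member counts were 5 and 3, 5 and 2, 13 and 15, 17 and 12, 17 and 12, 9 and 5, 0 and 2, and 14 and 4 in the same order. Of the 10752 genes tested so, higher and lower were 1642 and 1272 in growing oocytes, 1108 and 1237 at GV, 2852 and 2687 at MII. For MII against GV all genes gave 3408 and 4426 in WT, 3249 and 3754 in Zar1/2-null, and 1655 and 1039 for the interaction. For GV against growing all genes gave 330 and 352 in WT and 1830 and 2059 in Zar1/2-null. With averaged ERCC factors 1 member was called lower in the interaction. With the groups compared alone, 6 members were lower at GV and 3 fell during WT growth, beside 2949 and 1952 of 11502 genes. Whether the fewer libraries behind the spread lowered these 2 member counts was not tested.

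When each of the 12 libraries was left out in turn, members higher and lower ranged over 2 to 3 and 3 to 11 in growing oocytes, 0 to 0 and 7 to 21 at GV, 12 to 14 and 6 to 8 at MII, 0 to 0 and 39 to 43 for MII against GV in WT, 0 to 0 and 27 to 34 in Zar1/2-null, 11 to 17 and 0 to 0 for the interaction, 0 to 0 and 3 to 6 for GV against growing in WT, and 0 to 1 and 14 to 19 in Zar1/2-null. A group left with 1 library was assumed to vary like the others. Calls over all tested genes changed with the library left out too, so these ranges do not describe the members alone.

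Gene by gene, little pairing by replicate number was seen. Over 15 pairs of groups the correlation of replicate differences across genes ran from -0.117 to 0.163, and 4 exceeded 0.1. An offset shared by all genes of a replicate number would not show in it, so pairing is not excluded. With the replicate number as a block 2 members rose from growing to GV in Zar1/2-null oocytes and no other count moved by more than 1.5 times.

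A pseudocount of 0.1 FPKM, no filter, a mean of at least 5 FPKM and eBayes without a trend moved no count by more than 1.5 times. The 29 changes followed here were the called member changes of largest size in each comparison and direction, chosen from these same data. None of the 29 reversed under the alternatives run. Their choice by size made a reversal unlikely, so this says nothing of smaller changes. Outside the 29, Lsm6 at GV turned sign with median scaling. Snrpe, Snrpf, Snrpg and Snrpd3 turned from lower to higher at MII against GV in WT oocytes without the ERCC factors. The calls of Snrpc (growing), Sf3a1 (GV) and Lsm1 (WT growth) were lost without the ERCC factors and with median scaling. Snrpc in growing oocytes was also lost with the 4 growing libraries alone and without WT replicate 2 or Zar1/2-null replicate 1. All 7 LSm differences at MII stayed positive under each alternative, with 6 called without the ERCC factors, with median scaling, and without replicate 1 of either MII group. No counting error was computed, so values near 0 carry no counting interval.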
